A study of Bos taurus with 6 samples.

Results

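The miRNAs described here are miR-99a, miR-99b and miR-100, which form 1 seed family, and miR-125a and miR-125b, which form another. They were taken from a small RNA table by name: every known miRNA row called miR-99a, miR-99b, miR-100, miR-125a or miR-125b, with either arm. This gave 6 of the 771 known miRNA rows, or 6 of 2213 rows in all: bta-miR-99a-5p, bta-miR-99a-3p, bta-miR-99b, bta-miR-100, bta-miR-125a and bta-miR-125b. All 6 passed the filter on low counts, miR-99a-3p only through its adipocyte libraries. The table types the rows of miR-99a-5p, miR-100 and miR-125a as mature and those of miR-99a-3p, miR-99b and miR-125b as hairpin, and whether a hairpin row counts reads over the whole precursor or over 1 arm is not known here. A ratio or share that sets a mature row against a hairpin row may therefore compare unlike quantities, whereas miR-100 and miR-99a-5p are rows of 1 kind. The species prefix bta- is left out below. The libraries came from cultured Holstein preadipocytes at passage 4 to 6, the committed precursors of fat cells (3 libraries), and from adipocytes of the same breed and passages (3 libraries). The labels describe growth in F12/DMEM with serum and antibiotics and induction with insulin, dexamethasone, rosiglitazone and IBMX. Both groups carry the same protocol text, and neither the length of the induction nor the animals behind the replicates were given in the sources used here. The p-values therefore measure the spread between these libraries, which may be technical.

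A mature miRNA guides an Argonaute protein to mRNAs that pair with its seed, the stretch of bases near its 5′ end, and thereby lowers their translation and stability. Members of the miR-99/100 family share a seed, differ at few bases elsewhere, and are known for repressing the growth regulators MTOR and IGF1R. The miR-125 family is the vertebrate counterpart of nematode lin-4, and let-7, which lies beside it in the genome, is the other classical developmental timing miRNA. All 3 belong to clusters that repeat the same order in vertebrate genomes, a miR-99/100 gene, a let-7 gene and a miR-125 gene. For cattle, names and neighbours were taken from RefSeq (assembly ARS-UCD2.0), where the clusters were MIR99A, MIRLET7C and MIR125B-2, then MIR100, MIRLET7A-2 and MIR125B-1, then MIR99B, MIRLET7E and MIR125A. Besides the miRNA genes, 1 other gene overlapped the span of the first cluster and 2 that of the second. The span of the third was overlapped by 1, the protein-coding SPACA6. The table has 1 row for miR-125b, which has 2 genes, and 1 row for the 5p arm of let-7a, which has 3 genes, so those rows cannot be assigned to a single cluster.

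The 6 libraries held 19292757 to 25801117 reads in the table, of which known and predicted miRNAs took 14525284 to 22283754. miR-21-5p alone took 64.0% to 74.1% of the miRNA reads in adipocytes and 77.9% to 80.2% in preadipocytes, so a share of all reads falls or rises with it. Levels below are counts-per-million of miRNA reads (CPM) after scaling with edgeR's TMM factors, which are set by the bulk of the miRNAs, and they are not divided by length. Preadipocyte replicate 3 stood apart in its reads in exon, intron, intergenic and repeat rows (5.29%, against 18.4% and 18.9% in preadipocyte replicates 1 and 2 and 8.21% to 12.0% in adipocytes). The table holds no mRNA, so markers of fat cells could not be read from it. Of miRNAs that mark other cells, the summed CPM without TMM factors was 44.9 to 91.0 in adipocytes and 95.4 to 334.1 in preadipocytes for endothelium (2 rows), 0.794 to 1.60 and 1.44 to 4.20 for blood (6 of 7 names had a row), and 0.471 to 0.993 and 0.459 to 0.895 for epithelium (5 of 7). It was 38.4 to 55.4 and 25.0 to 47.7 for muscle (5 of 7), and 4.34 to 6.85 and 4.61 to 6.19 for neural miRNAs (2 of 5). The muscle rows did not move together. Of the 3 that entered the edgeR test below, 1 was estimated above 0, and the median log2 difference was -0.29. There, 1 passed as lower (edgeR BH-adjusted p below 0.05), and 6.28% of all 414 tested miRNAs passed in either direction. No row of these lists was at 0 in all 6 libraries, and their part in the results below was not tested.

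The 6 miRNAs together took a larger share of the miRNA reads in adipocytes than in preadipocytes. They took 3.97%, 4.02% and 2.85% of the miRNA reads in adipocyte replicates 1, 2 and 3, and 1.38%, 1.61% and 1.65% in preadipocyte replicates 1, 2 and 3. The lowest adipocyte library was above the highest preadipocyte library. With miR-21-5p taken out of the total, the share was 11.3% ± 0.579 in adipocytes and 7.39% ± 1.05 in preadipocytes (SD, n = 3 each), again without overlap, and the exact two-sided permutation p was 0.1, the smallest that 3 libraries against 3 can give. Most of this was miR-99a-5p. It ranked between 4 and 7 among all known miRNAs in every library, while miR-100 ranked 13 to 15 in adipocytes and 23 to 30 in preadipocytes.

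**Figure D1:**
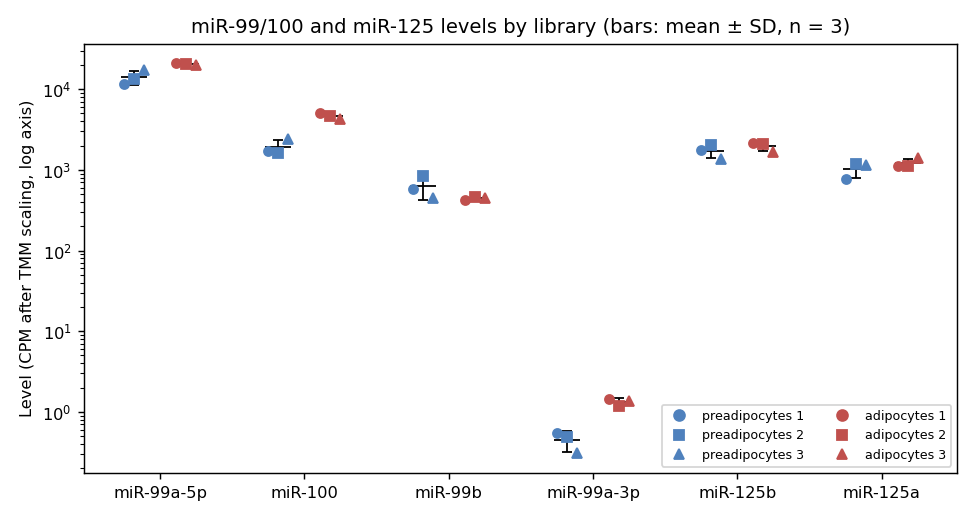
Level of each of the 6 miRNAs in each library, in CPM after TMM scaling on a log axis, with preadipocytes in blue, adipocytes in red and bars for the mean ± SD of 3 libraries. miR-100 lay at 4209 to 5099 CPM in adipocytes and 1629 to 2376 CPM in preadipocytes, while the 2 groups overlapped for miR-99b, miR-125b and miR-125a.

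The clearest change was that of bta-miR-100. Adipocyte replicates 1, 2 and 3 gave 102873, 98689 and 82310 reads of it. Preadipocyte replicates 1, 2 and 3 gave 24956, 19999 and 38891. In CPM this was 5099, 4672 and 4209 against 1706, 1629 and 2376. Every adipocyte library was above every preadipocyte library, and within the preadipocytes replicate 3 was the highest. miR-100 rose 2.45-fold, from 1904 ± 411 to 4660 ± 445 CPM (SD, n = 3 each), which is 1.29 on the log2 scale (SE 0.24, 95% interval 0.72 to 1.86, edgeR BH-adjusted p = 0.0293). It was the only 1 of the 6 to pass the threshold of 0.05 in this test. Over all 414 tested miRNAs 6.28% passed in either direction and 3.86% passed as higher. With 1 library fewer in either group the difference of miR-100 stayed between 1.16 and 1.48, but it passed only without preadipocyte replicate 3 (edgeR BH-adjusted p = 0.0115), a fit in which 31.8% of all tested miRNAs passed. Without adipocyte replicate 1, 2 or 3, or preadipocyte replicate 1 or 2, the adjusted p in the same edgeR test was 0.140, 0.119, 0.0789, 0.0968 and 0.105.

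The family's most abundant member, bta-miR-99a-5p, is the arm that is loaded as the guide. On the TMM scale its levels were 20799, 20410 and 20196 CPM in adipocyte replicates 1, 2 and 3. This range was far narrower than the 11655, 13348 and 17076 CPM of preadipocyte replicates 1, 2 and 3. As a share of miRNA reads, the same adipocyte replicates held 2.79%, 2.85% and 2.07% (SD 0.438). The preadipocyte replicates held 0.978%, 1.13% and 1.25% (SD 0.138), so without TMM factors the adipocytes had the wider spread. The groups did not overlap, yet the log2 difference of 0.55 (SE 0.21, 95% interval 0.04 to 1.05) did not pass (edgeR BH-adjusted p = 0.117). Here preadipocyte replicate 3 was again the one nearest to the adipocytes, and leaving it out gave 0.70, which passed (edgeR BH-adjusted p = 0.0450) along with the 31.8% of all miRNAs that passed in that fit.

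The row of the other arm, bta-miR-99a-3p, held few reads. Adipocyte replicates 1, 2 and 3 held 29, 25 and 27 reads of it, and the preadipocyte replicates, in the same order, held 8, 6 and 5. These groups did not overlap either, at 1.33 ± 0.133 CPM and 0.447 ± 0.126 CPM (SD, n = 3 each), and the log2 difference of 1.57 (SE 0.44) missed the threshold (edgeR BH-adjusted p = 0.0657). Counts this small carry a large counting error. With 0.5 reads added to both rows, the ratio of the 5p to the 3p row was 14220, 16910 and 14360 in adipocyte replicates 1, 2 and 3, and 20060, 25210 and 50810 in preadipocyte replicates 1, 2 and 3. Its mean log2 difference was -0.97 (exact permutation p = 0.1, the smallest possible), and it was -0.57 without preadipocyte replicate 3 and -1.24 without preadipocyte replicate 1.

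The remaining member, bta-miR-99b, did not share the direction of its relatives on this scale. Its level was 419, 462 and 449 CPM in adipocyte replicates 1, 2 and 3 and 578, 843 and 452 CPM in preadipocyte replicates 1, 2 and 3. Preadipocyte replicate 3 fell inside the adipocyte range, while the other 2 preadipocyte libraries were above it. The log2 difference was -0.49 (SE 0.29, 95% interval -1.20 to 0.21), which did not pass (edgeR BH-adjusted p = 0.257). It was -0.23 without preadipocyte replicate 2 and ranged down to -0.70 without any 1 library, and with library totals alone it turned to 0.12.

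How the counting divided reads between miR-99a, miR-99b and miR-100, which are nearly identical, is not known, so their reads were also summed. The sum stood at 25583 ± 815 CPM in the adipocyte libraries and 16542 ± 2989 CPM in the others (SD, n = 3 each), with 24829 CPM in the lowest adipocyte library and 19829 CPM in the highest preadipocyte library. The 2 groups lay apart, and the log2 difference of 0.63 (SE 0.20, 95% interval 0.14 to 1.12) did not pass the test over 411 miRNAs (edgeR BH-adjusted p = 0.0890), of which 5.35% passed. On average miR-99a-5p made up 80.1% of the summed reads in adipocytes and 84.6% in preadipocytes, so the sum mostly reflects that row. The call of miR-100 holds for the row as deposited. Whether it depends on how reads were divided cannot be told from the sum. Leaving out preadipocyte replicate 3 gave 0.76 for the sum, which passed (edgeR BH-adjusted p = 0.0343) in a fit where 31.8% of all rows did.

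**Figure D2:**
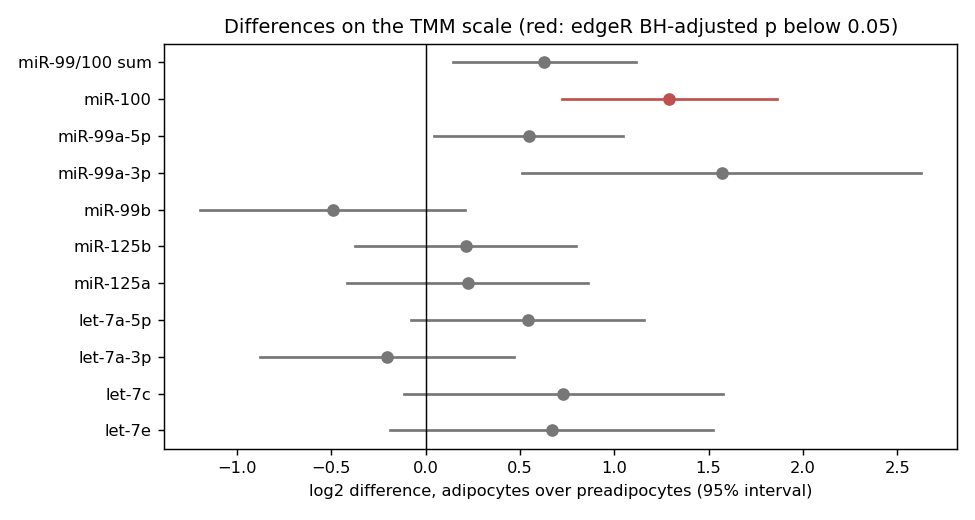
Log2 difference of adipocytes over preadipocytes (points) with its 95% interval (lines) for the miR-99/100 sum, the 6 miRNAs and the let-7 rows of the same clusters. miR-100 at 1.29 is the only one drawn in red, for an edgeR BH-adjusted p below 0.05, and miR-99b and let-7a-3p are the 2 with negative estimates.

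Neither miR-125 miRNA passed the test. bta-miR-125b, the more abundant of the pair, stood at 2173, 2117 and 1651 CPM in adipocyte replicates 1, 2 and 3 and at 1741, 2011 and 1381 CPM in preadipocyte replicates 1, 2 and 3. Replicate 3 was the lowest in both groups and the groups overlapped. Its log2 difference was 0.21 (SE 0.24, 95% interval -0.37 to 0.80, edgeR BH-adjusted p = 0.561). For bta-miR-125a the levels were 1100, 1115 and 1408 CPM against 759, 1186 and 1160 CPM in the same order. These overlapped too, with a log2 difference of 0.22 (SE 0.27, 95% interval -0.42 to 0.86, edgeR BH-adjusted p = 0.567). The intervals leave room for a rise of up to 0.80 and 0.86 or a fall of up to -0.37 and -0.42 on the log2 scale. Under upper-quartile scaling both estimates were slightly negative (-0.11 for miR-125b and -0.07 for miR-125a). Summed, the pair stood at 3188 ± 105 CPM in the adipocyte and 2747 ± 413 CPM in the preadipocyte libraries (SD, n = 3 each), 0.21 apart in log2 units (SE 0.20, edgeR BH-adjusted p = 0.471).

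By mean level the order was miR-99a-5p, miR-100, miR-125b, miR-125a, miR-99b and miR-99a-3p. In adipocytes the libraries of neighbours in this order did not overlap. In preadipocytes the ranges of miR-100 (1629 to 2376 CPM) and miR-125b (1381 to 2011 CPM) overlapped, as did those of miR-125a (759 to 1186 CPM) and miR-99b (452 to 843 CPM). Of the 6, 5 had a positive log2 difference, and for 3 (miR-100, miR-99a-5p and miR-99a-3p) every adipocyte library was above every preadipocyte library. The same was true of 24.2% of all tested miRNAs. The median log2 difference was 0.38 over the 6 and -0.02 over all tested miRNAs. With 25 to 29 reads in adipocytes and 5 to 8 in preadipocytes, miR-99a-3p passed the low-count filter only through the adipocytes. The filter thus favoured its direction, so its part in these counts is no support.

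The size of these differences depended on how libraries were scaled. The median log2 difference of all miRNAs was -0.02 with TMM, 0.62 with library totals alone, 0.02 with library totals that left out miR-21-5p and -0.31 with upper-quartile factors. A scaling factor moves every row of a library alike, so the distance of a miRNA from that median is nearly fixed by construction and says nothing about stability. On the TMM scale this distance was 1.31 for miR-100, 0.57 for miR-99a-5p, 1.59 for miR-99a-3p, 0.23 for miR-125b, 0.25 for miR-125a and -0.47 for miR-99b. With library totals alone, where 23.4% of all tested miRNAs passed, miR-100, miR-99a-5p and miR-99a-3p were among them (edgeR BH-adjusted p of 0.0119, 0.0209 and 0.0268), and miR-125a and miR-125b did not (0.0550 and 0.0996 in the same test). miR-100 passed under each of the 5 scalings, with edgeR BH-adjusted p from 0.0119 to 0.0456.

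**Figure D3:**
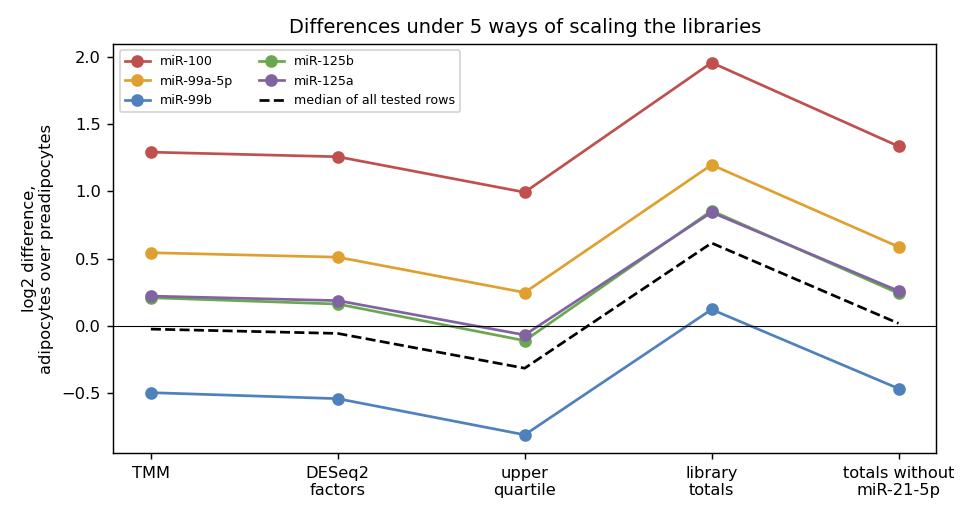
Log2 difference of adipocytes over preadipocytes for 5 of the miRNAs under 5 ways of scaling the libraries, with the median of all tested miRNAs as a dashed line. Each scaling moves all lines and the median together, from -0.31 to 0.62 for the median, and with them the estimate of miR-99b from -0.81 to 0.12.

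Ratios between miRNAs of 1 library do not depend on scaling, and they show where the members differed from each other. Within the miR-99/100 reads, miR-100 took 19.4%, 18.3% and 16.9% in adipocyte replicates 1, 2 and 3 and 12.2%, 10.3% and 11.9% in preadipocyte replicates 1, 2 and 3. The groups lay well apart, at 18.2% ± 1.22 and 11.5% ± 1.05 (SD, n = 3 each; exact two-sided permutation p = 0.1). Without any 1 library the difference stayed between 6.11 and 7.34 percentage points. The share of miR-99a-5p was 80.1% ± 1.12 in adipocytes and 84.6% ± 1.10 in preadipocytes, and that of miR-99b was 1.73% ± 0.125 and 3.91% ± 1.54 (SD, n = 3 each; exact permutation p = 0.1 for both). Preadipocyte replicate 3, at 2.27% miR-99b, was closest to the adipocyte libraries (at most 1.81%). The 95% Wilson intervals of the shares of single libraries given for miR-100 were at most 0.284 percentage points wide, which covers counting error only.

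**Figure D4:**
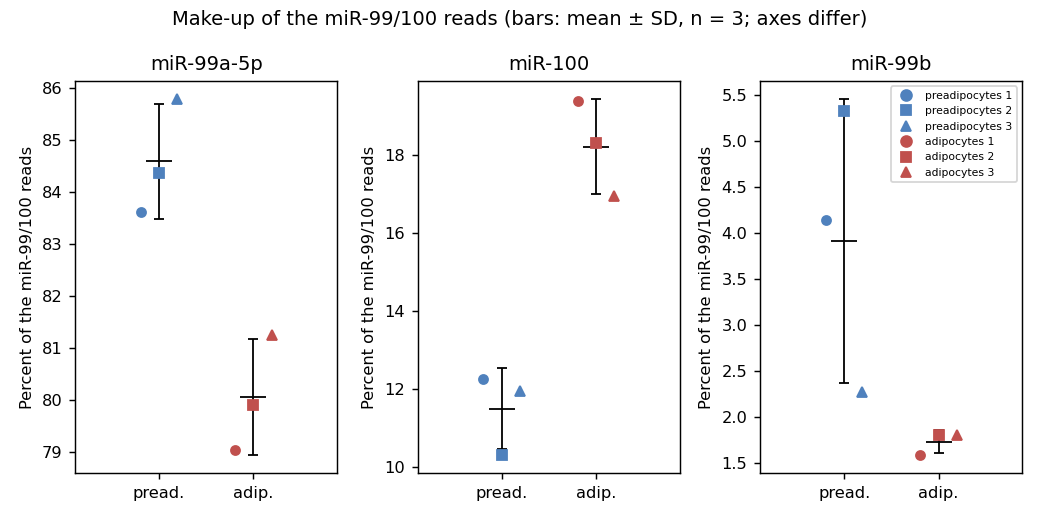
Percent of the miR-99/100 reads that were miR-99a-5p, miR-100 and miR-99b in each library, with bars for the mean ± SD of 3 libraries and a separate vertical axis, not starting at 0, in each panel. miR-100 lay at 16.9% to 19.4% in adipocytes and 10.3% to 12.2% in preadipocytes.

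Of 11 ratios compared, 6 did not overlap between the groups, each at an exact two-sided permutation p of 0.1 (0.183 after BH adjustment over the 11), which this design cannot go below. Every ratio with miR-100 as a term was among the 6, so the 6 are not separate results. How often ratios between other miRNAs lie apart was not computed. There were 0.245, 0.229 and 0.208 reads of miR-100 for each read of miR-99a-5p in adipocyte replicates 1, 2 and 3, and 0.146, 0.122 and 0.139 in preadipocyte replicates 1, 2 and 3. This is a mean difference of 0.74 on the log2 scale (0.67 to 0.81 without any 1 library), and the ratio was higher in every adipocyte library than in any preadipocyte library. Against miR-99b, miR-100 stood at 12.2, 10.1 and 9.38 reads per read in adipocytes and 2.95, 1.93 and 5.25 in preadipocytes (log2 difference 1.76). miR-99a-5p stood at 49.7, 44.2 and 45.0 reads per read of miR-99b in adipocytes and 20.2, 15.8 and 37.8 in preadipocytes (log2 difference 1.01). In both ratios to miR-99b, preadipocyte replicate 3 was the nearest to the adipocytes, and without it the log2 differences were 2.13 and 1.37, while without preadipocyte replicate 2 they were 1.41 and 0.74.

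The miR-125 and miR-99/100 members did not keep a fixed ratio either. For each read of miR-100 there were 0.426, 0.453 and 0.392 reads of miR-125b in adipocytes and 1.02, 1.23 and 0.581 in preadipocytes, so that miR-125b was the scarcer of the 2 in every adipocyte library and in preadipocyte replicate 3 (log2 difference -1.09, from -1.41 to -0.86 without any 1 library). The ratio of miR-125b to miR-99a-5p, the other cluster mate, overlapped between the groups (log2 difference -0.35, from -0.64 to -0.19 without any 1 library, exact permutation p = 0.4). Within the miR-125 pair, the share of miR-125b differed by less than the spread between libraries, at 62.0% ± 6.92 of their reads in adipocytes and 62.3% ± 7.67 in preadipocytes (SD, n = 3 each; exact permutation p = 0.9). Replicate 3 had the lowest miR-125b share in both groups, at 54.0% and 54.4%.

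**Figure D5:**
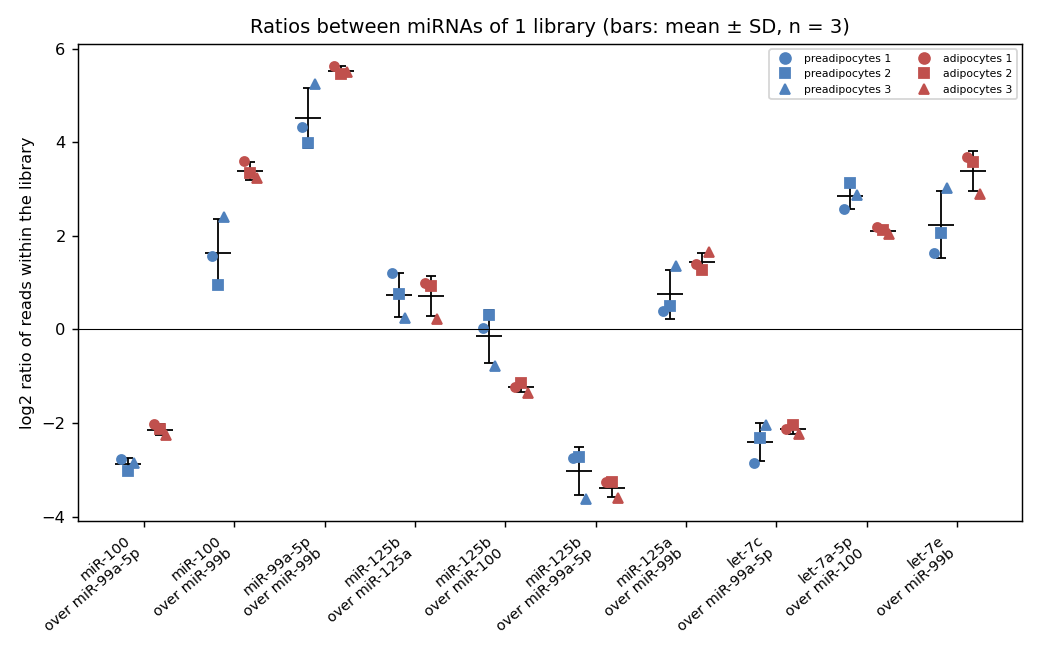
Log2 ratio of the reads of 2 miRNAs within each library for 10 pairs, with preadipocytes in blue, adipocytes in red and bars for the mean ± SD of 3 libraries. The red and blue points are apart for miR-100 over miR-99a-5p (a mean difference of 0.74) and overlap for miR-125b over miR-125a.

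Each cluster also holds a let-7 gene, and the rows of let-7c, let-7a and let-7e are given here, of which that of let-7a cannot be assigned to its clustered gene alone. let-7 is known in fat cell precursors for repressing HMGA2, a chromatin protein of growing cells. Of its 4 rows, 0 passed the test over all 414 miRNAs, of which 6.28% passed. Of the same 4 rows, 3 were estimated above 0, with a median of 0.60. At the MIR99A cluster, let-7c stood at 4746, 4926 and 4310 CPM in adipocytes and 1618, 2684 and 4128 CPM in preadipocytes (log2 difference 0.73, SE 0.35, edgeR BH-adjusted p = 0.184). The groups did not overlap, but preadipocyte replicate 3 came close to the lowest adipocyte library, and leaving it out gave 1.10, which passed (edgeR BH-adjusted p = 0.0467), as did 31.8% of all miRNAs in that fit. Its ratio to miR-99a-5p overlapped between the groups, with a log2 difference of 0.27 (exact permutation p = 0.4) that was 0.044 without preadipocyte replicate 1 and 0.44 without preadipocyte replicate 3.

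The row of let-7a-5p, which has a gene in the MIR100 cluster and 2 elsewhere, averaged 20207 ± 2969 CPM in the adipocyte and 13892 ± 3578 CPM in the preadipocyte libraries (SD, n = 3 each), and the groups overlapped narrowly, with 17215 CPM in adipocyte replicate 3 and 17303 CPM in preadipocyte replicate 3. Its log2 difference was 0.54 (SE 0.26, edgeR BH-adjusted p = 0.179). Its ratio to miR-100 was lower in every adipocyte library: there were 4.54, 4.34 and 4.09 reads of let-7a-5p for each read of miR-100 in adipocytes and 5.96, 8.72 and 7.28 in preadipocytes (log2 difference -0.74, exact permutation p = 0.1). The row let-7a-3p was low, at 16.9 ± 2.26 and 19.5 ± 2.25 CPM (SD, n = 3 each; log2 difference -0.20, edgeR BH-adjusted p = 0.618).

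The MIR99B cluster is the one in which each mature miRNA comes from a single gene of the RefSeq table. There let-7e stood at 5340, 5549 and 3324 CPM in adipocytes and 1781, 3491 and 3678 CPM in preadipocytes (log2 difference 0.67, SE 0.36, edgeR BH-adjusted p = 0.215). Adipocyte replicate 3 lay below preadipocyte replicates 2 and 3. Of the summed reads of miR-99b, let-7e and miR-125a, let-7e took 73.3% ± 7.91 in adipocytes and 63.3% ± 6.20 in preadipocytes, miR-125a 19.6% ± 6.54 and 22.6% ± 1.54, and miR-99b 7.08% ± 1.38 and 14.1% ± 5.09 (SD, n = 3 each). All 3 shares overlapped between the groups, with exact permutation p of 0.2, 0.4 and 0.2. The ratio of let-7e to miR-99b was 12.8, 12.0 and 7.40 in adipocytes and 3.08, 4.14 and 8.13 in preadipocytes, and that of miR-125a to miR-99b was 2.63, 2.41 and 3.14 against 1.31, 1.41 and 2.56. In both, preadipocyte replicate 3 lay among the adipocyte libraries and the other preadipocyte libraries lay below them.

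Among let-7 rows outside the 3 clusters (let-7b, let-7d, let-7f, let-7g, let-7i and miR-98), 0 of 6 passed, 5 were estimated above 0 and the median was 0.26. In a list of 14 miRNAs abundant in stromal cells, which includes miR-21-5p and let-7i, 1 passed as higher and 0 as lower. Of these 14, 6 were estimated above 0 and the median was -0.12. Over all 414 tested miRNAs, 6.28% passed in either direction and 3.86% as higher, so these counts set neither list apart.

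Fitting the share of exon, intron, intergenic and repeat reads, in which preadipocyte replicate 3 stood apart, as a covariate left miR-100 at 1.18 (edgeR BH-adjusted p = 0.0362). In that fit 32 of 414 tested rows passed, against 26 without the covariate. The other members did not pass. They stood at 1.79 (0.0623) for miR-99a-3p, 0.44 (0.147) for miR-99a-5p, -0.27 (0.483) for miR-99b, 0.14 (0.767) for miR-125a and 0.37 for miR-125b (0.262, all from the same edgeR test with BH adjustment).

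The miRNAs most like each member were found by the root mean square difference of log2 levels over the 6 libraries, each row centred on its own mean, among 200 other known miRNAs with a mean of at least 10 CPM. Small values mean a similar pattern, and nothing follows from them about shared function. The nearest to miR-100 were miR-374b (0.175), miR-664b (0.176) and miR-107 (0.206), which had log2 differences of 1.07, 1.35 and 1.24. miR-99a-5p was nearest to miR-499 (0.0887), let-7a-5p (0.141) and miR-3613a (0.147). The nearest to miR-125a was miR-10a (0.0852), then miR-493 (0.136) and miR-10b (0.178), and the table places miR-10a and miR-10b in the same mir-10 family as the 6 miRNAs described here. miR-125b was nearest to miR-1388-3p (0.153), miR-214 (0.184) and miR-34a (0.202). For miR-99b the nearest were miR-151-5p (0.0751), miR-181b (0.0934) and miR-532 (0.160), all with negative log2 differences (-0.61, -0.36 and -0.60). No 2 members shared a nearest miRNA.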

How the data were processed

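Small RNA of 18 to 30 nt was sequenced from 3 adipocyte and 3 preadipocyte libraries, per the labels' protocols. Of tools, the submitters' processing notes name Bowtie2. The build, the miRNA release and the handling of reads with several matches are not given in the sources used here. Per the file headers, each library has 2 columns. The deposited count columns are whole reads per row, not normalized by the authors. The deposited TPM values are the count divided by 1 constant per library (it varied by at most 0.0266% within a library over rows above 1000 reads), with no division by length.

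Columns were matched to libraries by title and groups taken from the labelled cell type. Counts of known and predicted miRNAs were fitted with edgeR 4.0.16 in R 4.3.3 (quasi-likelihood test with glmQLFit and glmQLFTest, two-sided, TMM factors, the default filterByExpr, a term for group alone, Benjamini-Hochberg (BH) over 414 rows, threshold 0.05). The 4 rows of reads by genome feature (5.29% to 18.9% of the table) and the Rfam and piRNA rows stayed out. SE was the log2 difference over the root of the F statistic. Shares and ratios (0.5 reads added to both terms) went into exact permutation tests (two-sided, SciPy 1.17.1). Alternatives were other scalings, filters and rows, DESeq2 1.42.0, limma 3.58.1 on log2 TPM plus 1 or 0.1, a replicate block, a covariate and leaving out each library. The rule for named miRNAs took the 6 rows, the let-7 rows of the same clusters, the sum, and the 3 most similar miRNAs of each member at or above 10 CPM. Its part on rows sharing a seed was not applied, since sequences were not used here. The members and lists were chosen with earlier results of these data known.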

Additional observations from a re-analysis of the deposited data

Results flagged for a closer look

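Reads assigned to Rfam families lie outside the miRNA rows compared above, and whether reads are shared between the 2 kinds of row is not known here. The row of the mir-10 precursor family, the family in which the table places miR-99, miR-100 and miR-125, stood at 1061 ± 87.5 CPM of miRNA reads (without TMM factors) in adipocytes and 329 ± 53.4 in preadipocytes (SD, n = 3 each), with no overlap between the groups (exact two-sided permutation p = 0.1, the smallest possible). The let-7 precursor row stood at 1439 ± 263 and 383 ± 263 CPM on the same scale (SD, n = 3 each; exact permutation p = 0.1), and its preadipocyte libraries spread from 156 to 671. Both drew attention because a signal in rows outside the comparison was above its level in the preadipocytes. With library totals alone, however, the median log2 difference of all tested miRNAs was already 0.62, and 88 of 414 passed as higher. How many miRNAs did not overlap between the groups on that scale was not computed.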

How the results depend on the processing

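Depth limited only miR-99a-3p, at 5 to 29 reads. The count of miRNAs past the threshold (26 of 414 rows) was 49 with upper-quartile factors, 97 with library totals alone and 96 with DESeq2. It was 106 and 105 with limma on TPM (pseudocount 1 and 0.1) and 1 with the replicate block, all over 414 rows. With a minimum of 10 CPM it was 43 of 217 rows, and with known miRNAs only 59 of 365 rows. Without any 1 library it was 1 to 148, over 439 to 468 rows (148 without preadipocyte replicate 3, at most 8 without any other). The balance of higher and lower calls was 16 and 10, against 15 and 34 with upper-quartile factors, 88 and 9 with library totals alone, 18 and 25 with the 10 CPM minimum, 27 and 32 with known miRNAs, 49 and 47 with DESeq2 and 94 and 12 with limma at pseudocount 1. Of the 6 members, 1 passed, against 3 with library totals alone, 3 with limma at either pseudocount, 2 with known miRNAs only, 0 with the replicate block and 0 to 2 without any 1 library. The miR-99/100 sum passed with library totals alone (1.28) and with limma on TPM (1.21 at either pseudocount), neither of which uses TMM factors. In those fits the median of all tested rows was 0.61 with library totals and 0.39 and 0.56 with limma, against -0.04 with TMM. Without any 1 library the sum ranged from 0.46 to 0.76.

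Estimates changed sign for miR-99b with library totals alone (0.12), limma (0.12 at either pseudocount), for miR-125a with upper-quartile factors (-0.065) and without adipocyte replicate 3 (-0.092, in a range of -0.092 to 0.30 without any 1 library), for miR-125b with upper-quartile factors (-0.11) and a minimum of 10 CPM (-0.0057), and for let-7a-3p with library totals alone (0.41) and limma (0.33 and 0.36). The log2 ratio of miR-125b over miR-125a (-0.02) was 0.22 without adipocyte replicate 3 and 0.21 without preadipocyte replicate 1, and ranged from -0.27 to 0.22 without any 1 library. The merged row that replaces miR-99b in the family sum differed by 0.63, but it holds mostly miR-99a-5p reads and is no estimate of miR-99b. miR-100 kept a positive estimate in all 19 alternatives and passed in 12. These 19 include the merged row, which is no estimate of miR-100 either. In a fit that also merged the miR-125 rows, it differed by 0.63 and did not pass (edgeR BH-adjusted p = 0.0788). Without TMM factors the median of all tested miRNAs moved too, to 0.62 with library totals alone and to 0.39 and 0.57 with limma on TPM (pseudocount 1 and 0.1). The family sum merges rows, and leaving out a library removes samples. Beyond this, the cause of these changes was not tested. Deviations from the group means correlated at 0.04, -0.31 and 0.02 between the libraries numbered 1, 2 and 3 of the groups. With 3 libraries per group these values cannot tell whether the replicate numbers pair the libraries. With the replicate block, miR-100 differed by 1.31 (edgeR BH-adjusted p = 0.125) and the sum by 0.64 (edgeR BH-adjusted p = 0.177). For the share of miR-100 in the sum, the block was an alternative chosen after seeing the data. Its mean difference of 6.71 percentage points is the same with and without the block by construction, so it says nothing about stability.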
